A study of Drosophila melanogaster with 8 samples.

Results

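The mRNAs of the mitochondrial ribosomal proteins were followed in synaptosomes and in the head homogenate (input) they were purified from. Members were taken from the table of counts per gene by symbol: every gene whose FlyBase symbol begins with mRpL (large subunit) or mRpS (small subunit). This rule found 69 of the 10669 genes in the table, 45 mRpL and 24 mRpS. The annotation holds 73 such genes, and mRpL18, mRpS14, mRpL53 and mRpS5 were not analysed here. Both groups came from adult heads of wild-type flies, labelled Drosophila melanogaster, and the study's methods give the strain as w1118 and the age as 3 days. No other treatment or genotype was used. Heads of many flies were pooled for a preparation. The labels describe snap-frozen flies whereas the study's methods describe fresh heads that were never frozen, and this was not resolved. Synaptosomes, pinched-off nerve terminals with adjoining postsynaptic membrane, were collected from a Percoll gradient, and input was the homogenate after the strainer. RNA 3′ ends were sequenced in 4 libraries per group, named 1, 2, 3 and old.

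Mitochondria carry their own ribosome, which translates the few proteins encoded in the mitochondrial genome, all of them membrane subunits of the respiratory chain and ATP synthase in animals. Its rRNAs are made inside the organelle, but its proteins are encoded in the nucleus, translated in the cytosol and imported. Some of these proteins have counterparts in bacterial ribosomes and others were added in the mitochondrial lineage. Mitochondria are abundant in nerve terminals, and mRNAs of nuclear-encoded mitochondrial proteins are among those known to be found in axons.

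The libraries differed widely in depth and makeup. Total counts were 1029666 to 9397652 in synaptosomes and 7940909 to 16865581 in input. Of the 69 members, none was at 0 in any input library, whereas 2, 10, 12 and 0 were at 0 in synaptosome libraries 1, 2, 3 and old. A count of 0 there allows levels of up to 0.700, 2.63, 2.12 and 0.352 CPM, the value of 3 counts there. CPM scales each count by the library total after TMM normalization. Lists of marker mRNAs, which do not measure synaptic protein, were used to check the labels. Of 8 photoreceptor genes 7 fell in synaptosomes (summed level 1679 to 1911 against 12334 to 22662 CPM of library totals), and of 7 synaptic genes none passed the test (91.6 to 451 against 174 to 1003). Of 4 neuronal nuclear and soma genes 3 could be tested and none passed (112.6 to 152 against 93.7 to 204), and the fourth, pros, was at 0 in every synaptosome library, as was the cuticle gene resilin. The libraries named old stood apart: the fat body list summed to 12979 and 13009 in them against 988 to 1458 in the other synaptosome libraries and 3362 to 4135 in the other input libraries. The cuticle list summed to 16960 to 20857 in synaptosomes 1 to 3, to 3246 in synaptosome old and to 2318 to 4068 in input. Of its 5 tested genes 3 rose in synaptosomes and 0 fell. In pooled bulk RNA of a fraction, less material from a cell type and less of its mRNA in that material cannot be told apart.

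The comparison of synaptosomes with input asked which mRNAs were at higher or lower level in the synaptosome fraction. Synaptic marker mRNAs were not higher there than in input. The study assessed this fraction by other means: it reported enriched synaptic proteins by Western blot and proteomics, and intact synaptosomes by electron microscopy. The marker mRNAs do not measure either. Of the 69 members, 1 rose in synaptosomes, mRpL33, and none fell (edgeR's quasi-likelihood test, Benjamini-Hochberg adjusted p under 0.05 over 8159 genes). Over all tested genes 0.944% rose and 4.13% fell. At an unadjusted p under 0.05, 1 member was higher and 4 were lower (mRpL22, mRpL49, mRpL3 and mRpS25), against 4.44% and 9.85% of all genes. DESeq2 called 1 member higher and 2 lower, mRpL22 and mRpL3, against 2.77% and 5.21% of all genes. The fitted log2 fold changes (synaptosome minus input) ran from -3.21 for mRpL22 to 2.63 for mRpL33. Their median was -0.60, beside -0.35 for all tested genes, and 53 of the 69 lay below 0 (76.8%, beside 62.3% of all genes). Which of these medians was lower depended on the libraries and the fit: without both libraries named old it was -0.33 for members beside -0.48 for all genes, without synaptosome old -0.47 beside -0.57, and with a replicate block on libraries 1 to 3 -0.82 beside -1.26. The median standard error of a member was 0.71. In CPM, the groups did not overlap for 1 member that was higher in synaptosomes (2.99% of all genes were so) and for 11 that were lower (14.5% of all genes).

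**Figure D1:**
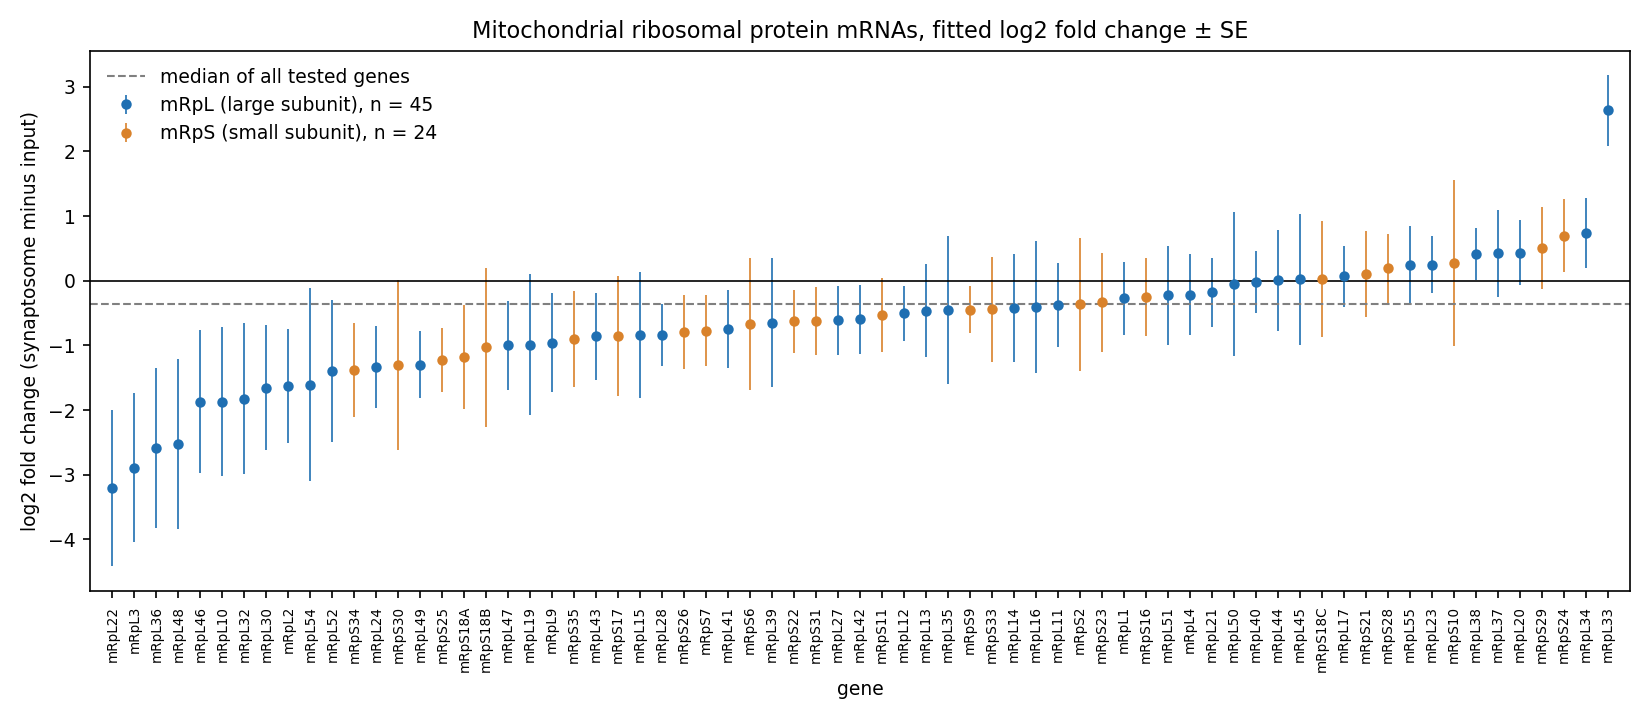
Fitted log2 fold change (synaptosome minus input, y axis) of each of the 69 mitochondrial ribosomal protein genes (x axis, ordered by value), as points with 1 standard error, blue for mRpL and orange for mRpS; the dashed line is the median of all tested genes, -0.35. mRpL33 stands alone at 2.63, and the other values run from 0.74 down to -3.21.

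mRpL33 encodes a small protein which in bacteria lies where spent tRNA leaves the large subunit. The gene (FBgn0040907) lies on the minus strand of chromosome X at 4321764 to 4322231 (dm6). Its coding length of 192 bases was the shortest of the members, all its counts were at 1 3′ end, and no annotated gene overlaps it. Its level was 874, 962, 709 and 137 CPM in synaptosomes 1, 2, 3 and old, and 90.6, 121, 130 and 90.4 CPM in input 1, 2, 3 and old. The groups did not overlap, but synaptosome old lay just above the highest input library and far below the other synaptosome libraries. The means were 671 ± 371 and 108 ± 20.6 CPM (SD, n = 4 in each group), and the log2 fold change was 2.63 ± 0.54 (adjusted p = 0.0474). Without both libraries named old it was 2.90 (adjusted p = 0.0141), while the ratio of the old libraries alone was 0.60 on the log2 scale. Whether the effect differed between old and numbered libraries was tested as an interaction, chosen after seeing the data. With 1 old library a group, their spread was assumed to be that of the numbered libraries. The difference for mRpL33 was -2.29 ± 0.60 (edgeR, unadjusted p = 0.00575, adjusted p = 0.554), and 0 of 8159 genes passed adjustment, with 709 at an unadjusted p under 0.05. The fall of mRpL33 in synaptosome old went with that of the cuticle list given above, whose part in the result was not tested. Its call rested on a value near the threshold. Leaving out any 1 library other than synaptosome old ended it, with adjusted p from 0.0652 to 0.130 and fold changes from 2.46 to 2.79. In those fits 0 to 12 of all genes were called higher, against 77 with all libraries, so the loss was not particular to mRpL33. Leaving out synaptosomes 2 and 3, the shallowest, gave mRpL33 a value of 2.29 (adjusted p = 0.0996), where no gene at all was called higher.

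**Figure D2:**
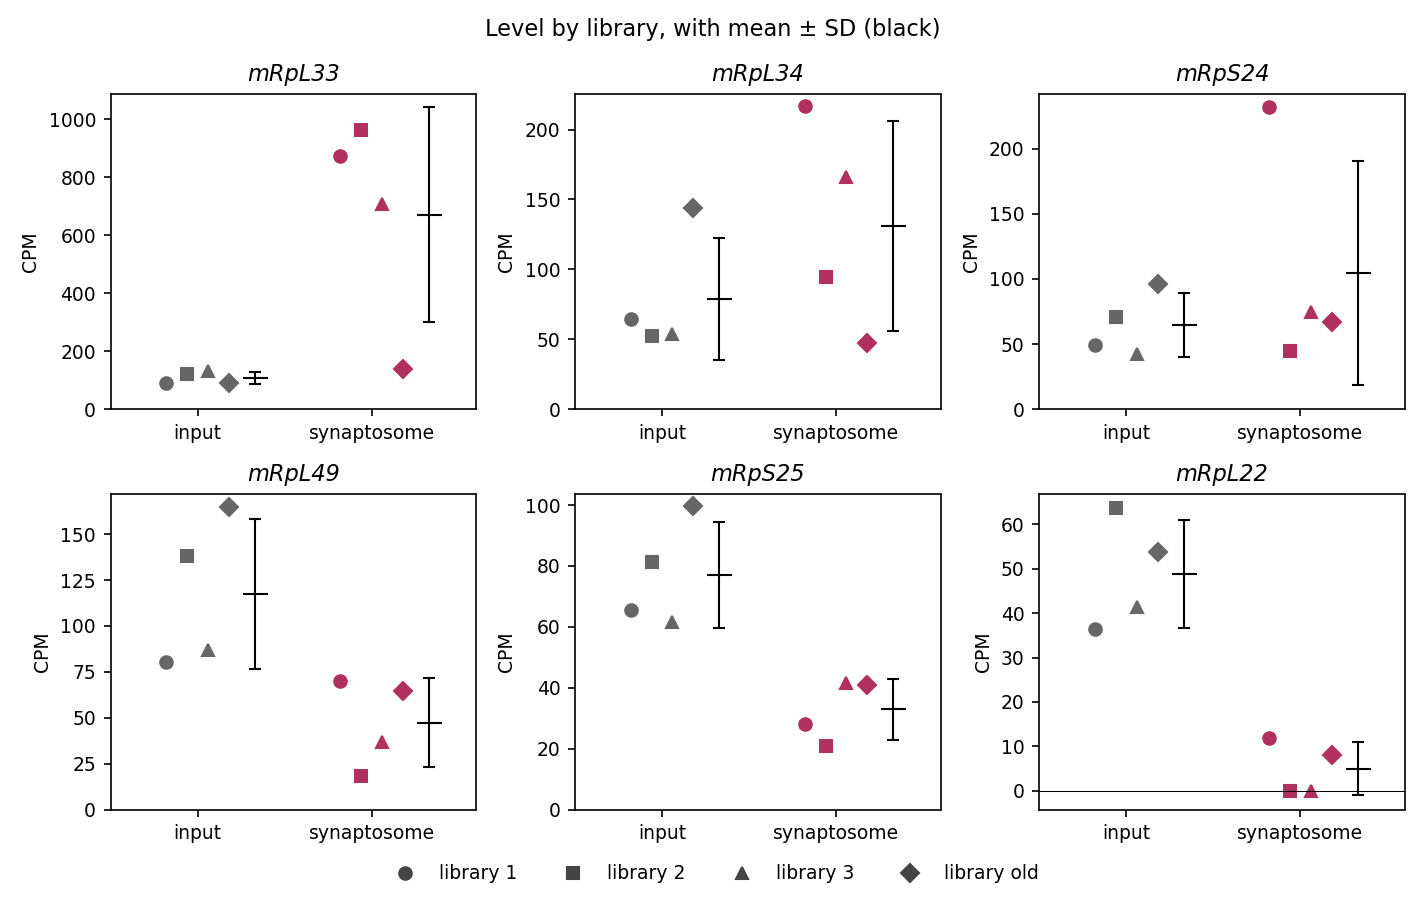
Level in CPM (y axes start at 0, apart from a small margin for mRpL22) of 6 mitochondrial ribosomal protein mRNAs in each input (grey) and synaptosome (red) library, with symbols for libraries 1, 2, 3 and old and the mean ± SD in black (n = 4). mRpL33 was at 709 to 962 CPM in synaptosomes 1 to 3 and at 137 CPM in synaptosome old; mRpL34 and mRpS24 overlapped between groups, and mRpL49, mRpS25 and mRpL22 did not.

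mRpL33 changed the makeup of the family. It took 16.3, 28.4, 17.7 and 4.54% of all member counts in synaptosomes 1, 2, 3 and old, and 2.55, 2.70, 3.51 and 1.53% in input. A read marks a transcript end, so levels were not divided by length. By that level it ranked 1st among the members in synaptosomes 1 to 3 and 5th in synaptosome old, and 6th, 7th, 3rd and 23rd in input 1, 2, 3 and old.

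Among the other large-subunit members with bacterial counterparts, the lowest fold changes belonged to genes below the family's median input level of 51.1 CPM. mRpL22, whose bacterial counterpart lines the exit tunnel of the growing peptide, was at 11.9, 0, 0 and 7.97 CPM in synaptosomes and 36.5, 63.5, 41.4 and 53.6 CPM in input. Every synaptosome library was below every input library, and 2 of them held no count. The log2 fold change was -3.21 ± 1.21 (adjusted p = 0.207, and 0.0382 with DESeq2). mRpL3, counterpart of a protein near the site of peptide bond formation, was at 10.0, 3.51, 0 and 4.34 CPM against 20.3, 31.0, 29.5 and 55.5 CPM. The groups again did not overlap, and its log2 fold change was -2.89 ± 1.15 (adjusted p = 0.246, and 0.0319 with DESeq2). mRpL36, counterpart of a very small zinc-binding protein, was at 0.233, 0, 19.1 and 10.2 CPM against 35.6, 42.0, 40.8 and 58.2 CPM. Its synaptosome libraries disagreed among themselves more than the input libraries did, and the value was -2.58 ± 1.23 (adjusted p = 0.380).

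mRpL10, counterpart of the base of the stalk that binds translation factors, had a log2 fold change of -1.87 ± 1.16. mRpL30 (-1.65 ± 0.97), mRpL24 (-1.34 ± 0.64) and mRpL9 (-0.96 ± 0.76) also had no overlap between groups and did not pass the test. mRpL28 was among the 5 most abundant members in input, at 139, 138, 124 and 243 CPM, and was at 73.9, 61.3, 50.1 and 173 CPM in synaptosomes. Synaptosome old overlapped the input libraries and the others did not. Its log2 fold change was -0.84 ± 0.48 (adjusted p = 0.503), and -1.38 (adjusted p = 0.0465) without synaptosome old.

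mRpL34, counterpart of a short basic protein buried in rRNA, had the next largest value after mRpL33, at 217, 94.6, 166 and 47 CPM in synaptosomes and 64.6, 52.2, 53.8 and 144 CPM in input. Synaptosomes 1 to 3 lay above input 1 to 3, and the old libraries had the opposite order. The log2 fold change was 0.74 ± 0.55 (adjusted p = 0.649). For mRpL20, known in bacteria as an early assembly protein, the groups overlapped, and the value was 0.44 ± 0.50. Over the 28 large-subunit members with a bacterial counterpart the median was -0.56, and 23 lay below 0.

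The 17 large-subunit members without a bacterial counterpart had a median of -0.60, with 12 below 0 and none called. mRpL48 was at 1.17, 21.03, 0.706 and 0.352 CPM in synaptosomes and 29.8, 30.5, 27.8 and 39.6 CPM in input. Synaptosome 2 was far above the other 3 synaptosome libraries and still below every input library, and the log2 fold change was -2.52 ± 1.31 (adjusted p = 0.443), and -5.37 (adjusted p = 0.0743) without synaptosome 2. mRpL49 was better measured, at 70.2, 18.4, 36.7 and 64.5 CPM against 80.2, 138, 87.0 and 165 CPM. Its groups did not overlap, and its value was -1.30 ± 0.52 (adjusted p = 0.245). mRpL46 was at 8.63, 4.38, 0 and 33.1 CPM against 33.6, 29.1, 39.0 and 71.6 CPM, where synaptosome old overlapped the input range, and its value was -1.87 ± 1.11 (adjusted p = 0.526).

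The most abundant members of this class showed no call in either direction. mRpL38 had the highest mean after mRpL33 in synaptosomes, at 323, 156, 226 and 325 CPM against 170, 176, 137 and 295 CPM in input, a log2 fold change of 0.41 ± 0.40. mRpL42 was at 166, 45.6, 122 and 44.5 CPM against 104, 110, 106 and 252 CPM, and mRpL55 at 225, 84.1, 201 and 22.6 CPM against 84.4, 174, 87.5 and 106 CPM. In both the groups overlapped, and synaptosome old was the lowest of the synaptosome libraries. Their fold changes were -0.60 ± 0.54 and 0.24 ± 0.61 on the log2 scale.

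The small subunit had no called member, and its 24 genes spanned a narrower range, from -1.38 for mRpS34 to 0.70 for mRpS24, with a median of -0.58. The 14 with a bacterial counterpart had a median of -0.41 with 9 below 0, and the 10 without had a median of -0.71 with 9 below 0. These medians carry no test. The class follows the letter of the symbol, although the mammalian counterparts of mRpS30 and mRpS18A sit in the large subunit. mRpS9, whose bacterial counterpart reaches the tRNA that holds the growing peptide, was even across synaptosome libraries, at 185, 174, 209 and 195 CPM in synaptosomes and 167, 317, 223 and 336 CPM in input. The groups overlapped through input 1, and the log2 fold change was -0.45 ± 0.36. mRpS25, a protein of the mitochondrial lineage, was at 28.2, 21.03, 41.6 and 40.8 CPM in synaptosomes and 65.4, 81.3, 61.6 and 99.7 CPM in input. All synaptosome libraries were below all input libraries, and the value was -1.22 ± 0.50 (adjusted p = 0.256). mRpS34, also without a bacterial counterpart, gave -1.38 ± 0.73 (adjusted p = 0.451).

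The highest small-subunit values rested on 1 library. mRpS24 was at 232, 44.7, 74.8 and 67.0 CPM in synaptosomes and 49.4, 70.9, 42.0 and 96.2 CPM in input, and only synaptosome 1 was above the input range. Its log2 fold change was 0.70 ± 0.57, and -0.06 without synaptosome 1. mRpS29, known in mammals as the GTP-binding protein DAP3, gave 0.51 ± 0.63, and -0.28 without synaptosome 1.

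The summed level of the groups differed by less than the spread between synaptosome libraries. Members together took 0.485, 0.375, 0.415 and 0.275% of counts in synaptosomes 1, 2, 3 and old and 0.399, 0.445, 0.424 and 0.484% in input (0.387 ± 0.0877% against 0.438 ± 0.0360%, SD, n = 4). The 95% Wilson intervals reached at most 0.0118 percentage points from these shares and cover counting error only. Synaptosome 1 was as high as the highest input library and synaptosome old was the lowest of all. The log2 ratio of the means was -0.18, and 0.01 without the old libraries. With mRpL33 taken out, the shares were 0.320 ± 0.0679% and 0.427 ± 0.0377%, a log2 ratio of -0.42. With mRpL33 kept in, the mRpL genes gave -0.07, and the mRpS genes gave -0.42, the same as the family without mRpL33. The -0.07 therefore does not stand for the other mRpL genes. The summed share has no test because the members were chosen with results known.

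**Figure D3:**
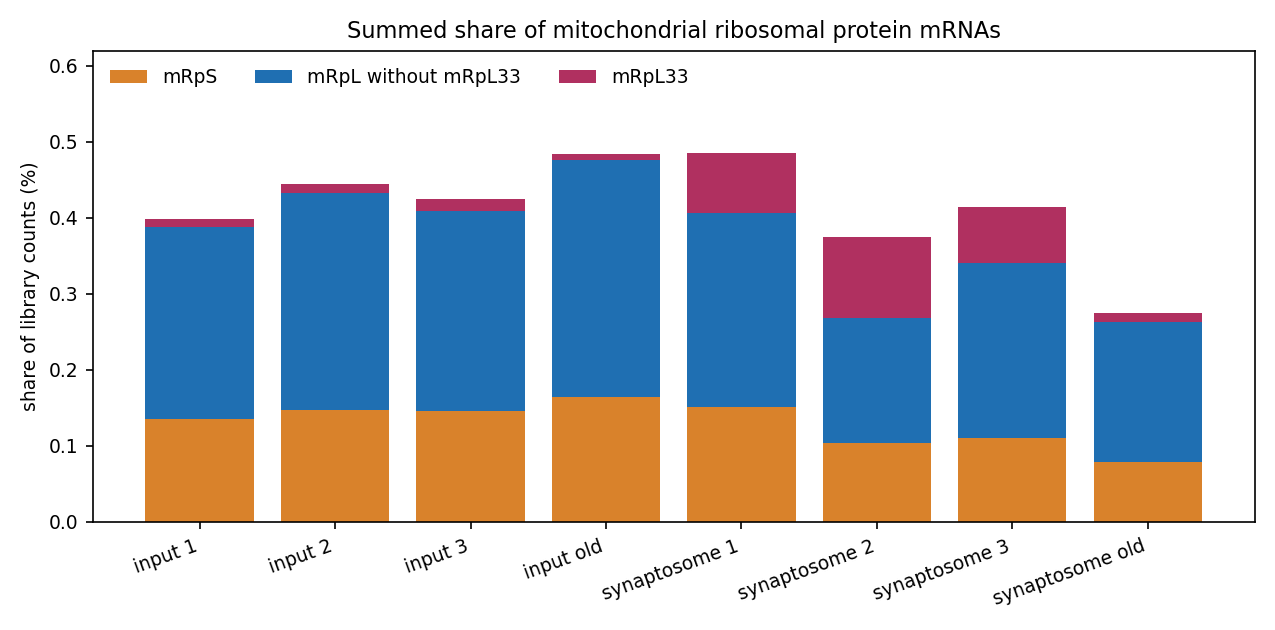
Summed share of library counts (percent, y axis from 0) taken by mRpS genes (orange), mRpL genes other than mRpL33 (blue) and mRpL33 (red) in each of the 8 libraries (x axis). The totals ran from 0.275% in synaptosome old to 0.485% in synaptosome 1, and mRpL33 took 16.3 to 28.4% of the members' counts in synaptosomes 1 to 3.

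Members varied more between synaptosome libraries than between input libraries. The median coefficient of variation was 76.3% in synaptosomes and 30.7% in input, and 60 of the 69 were more variable in synaptosomes. Over all tested genes these medians were 91.4% and 36.9%, and 7190 of 8159 genes were more variable in synaptosomes. Depth went with this: the median member had 178, 28, 40 and 221 counts in synaptosomes 1, 2, 3 and old, and 389 to 986 in input. Across the 69 members, log2 levels correlated at r = 0.80 to 0.86 between input libraries and at 0.19 to 0.52 between synaptosome libraries (6 pairs each). Over all genes the ranges were 0.83 to 0.91 and 0.60 to 0.62. These correlations are across genes of the same libraries and carry no test.

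In the libraries named old, most members were high in input. Input old was above the mean of the input libraries for 63 of 69 members and was the highest input library for 50 of them. Its median log2 difference from that mean was 0.47 for members and 0.025 for all genes. Synaptosome old was the lowest synaptosome library for 14 members, fewer than the shallowest libraries, synaptosome 2 (25) and synaptosome 3 (22). Its median log2 difference from the mean of the input libraries was -0.89 for members, beside -0.29 for all genes. In synaptosomes 1, 2 and 3 this was -0.35, -0.96 and -0.65 for members, beside -0.71, -0.92 and -0.99 for all genes. In synaptosome old 11 members were above that mean, against 28, 13 and 20 in synaptosomes 1, 2 and 3. Between the old libraries alone, 64 of 69 members had a log2 ratio below 0, with a median of -1.36 beside -0.31 for all genes. Among libraries 1 to 3, 46 of 69 lay below 0, beside 5196 of 8066 genes, with a median of -0.33 beside -0.48 for all genes. Of the 69 interaction terms described for mRpL33, 5 had an unadjusted p under 0.05 and none passed adjustment. The fat body list stood apart in the same libraries, and its part in these values was not tested.

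**Figure D4:**
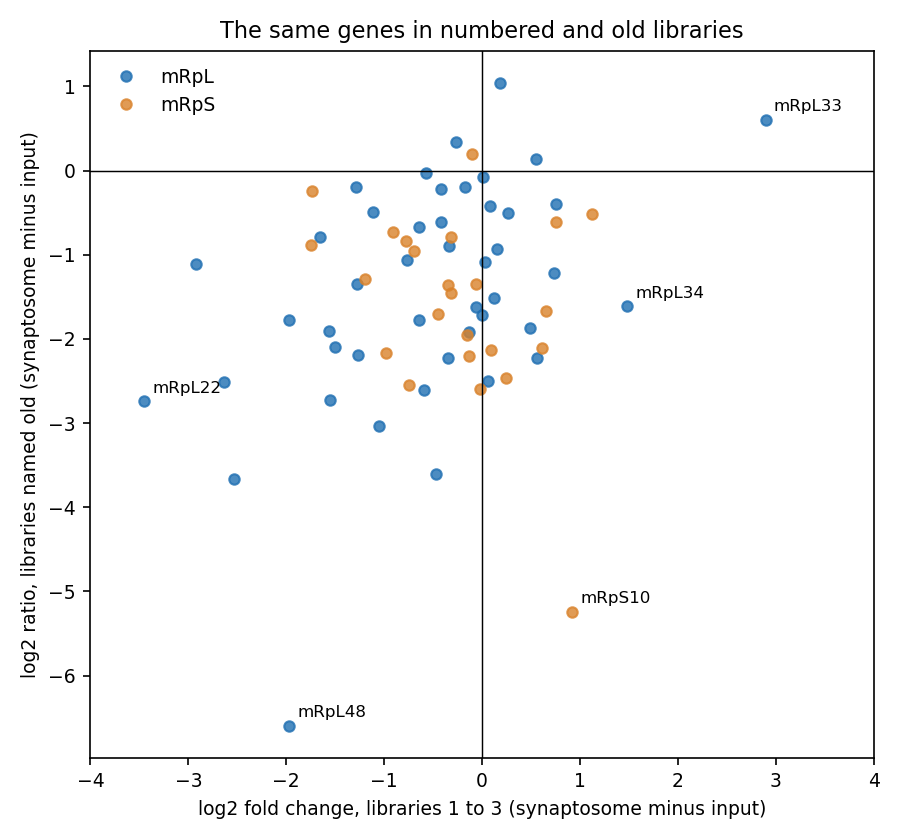
Each point is a mitochondrial ribosomal protein gene (blue mRpL, orange mRpS): its log2 fold change fitted on libraries 1 to 3 (x axis) against its log2 ratio between the libraries named old (y axis, 1 library a group, no error). Of 69 points, 64 lie below the horizontal line at 0, and mRpL33 is at 2.90 and 0.60.

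Most members used a single 3′ end or mainly so. Of 112 listed ends 106 held a count in some library, 42 members had a single such end (60.9%, beside 54.4% of all genes with a count), and in 58 members the main end held over 90% of counts in both groups. The annotated 3′ UTRs were short, with a median of 65 bases for the longest of a gene beside 307 over all tested genes, and the coding length had a median of 582 beside 1359 bases. Of 80 member ends tested, 1 rose and 1 fell, beside 0.732% and 6.46% of all 11062 tested ends. At an unadjusted p under 0.05, 1 member end was higher and 7 were lower, beside 2.6% and 11.8% of all ends. The end that rose was that of mRpL33 (log2 fold change 2.47 ± 0.54, adjusted p = 0.0390).

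The end that fell belonged to mRpS25, on the minus strand of chromosome X at 14582136 to 14582982. Its main end held 121, 24, 59 and 347 counts in synaptosomes and 545, 717, 788 and 1286 in input, with a log2 fold change of -1.29 ± 0.51. A minor end held no count in any synaptosome library and 37, 17, 32 and 93 counts in input, where it took 5.07% of the gene's counts (adjusted p = 0.0390). Against a floor of 3 counts per library, averaging 1.36 CPM, its input level of 3.99 ± 2.32 CPM was at least 2.93-fold higher. Without synaptosome old the call held (adjusted p = 0.0350). Leaving out any other library ended it, in fits that called 1 to 28 of all ends lower, against 715 with all libraries. It was also lost with DESeq2 (adjusted p = 0.0619), with no low-count filter (0.150) and with a replicate block on libraries 1 to 3 (0.269) or with old as a further block (0.0716), and the end was not tested after thinning or where the mean count had to be 100. Without input old the bound was 2.17-fold. Of the 106 member ends with a count, 19 had none in synaptosomes (17.9%, beside 30.9% of all ends with a count) and a median of 15 counts summed over input, and this was the only tested end among them.

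The share taken by each end could be tested in 11 members, those with at least 2 tested ends, and none passed. The usage test (edgeR's diffSpliceDGE, adjusted over 2216 genes) called 0 genes (0%), members included. At an unadjusted p under 0.05 it gave 12.5% of all genes and 1 of 11 members, mRpS25 (unadjusted p = 0.0107, adjusted p = 0.169). mRpS6 came next: a second end held 147, 0, 0 and 45 counts in synaptosomes and 0, 26, 26 and 6 in input, 40.2% against 2.70% of the gene's pooled counts. It was absent from synaptosomes 2 and 3, and the main end held 164, 0, 33 and 89 against 306, 252, 533 and 998 counts (edgeR, unadjusted p = 0.161). The third was mRpL50, where a second end held 0, 0, 0 and 29 counts against 41, 58, 100 and 116, or 9.09% against 28.3% of pooled counts (edgeR, unadjusted p = 0.264).

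Coding length and 3′ UTR length went little with the fold change. Over the 69 members its Spearman rho was -0.15 with coding length and -0.07 with the longest annotated 3′ UTR (-0.09 and -0.06 over all genes). With the input level it was 0.28, beside 0.05 over all genes. These are descriptions across genes. The 10 members with the shortest coding sequences had a median log2 fold change of -0.35, and the 10 with the longest had -0.36. Without mRpL33 the 9 shortest had -0.44. An annotated gene on the opposite strand overlaps 39 members and a gene on the same strand overlaps 1, mRpL13, whose counts may include reads of its neighbour.

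Other genes of mitochondrial gene expression were described for comparison from lists chosen with earlier results known. tko and bonsai, small-subunit proteins without an mRp symbol, had log2 fold changes of -2.38 ± 0.92 and -0.84 ± 0.95 (adjusted p = 0.228 and 0.817). tko, whose mutants are sensitive to mechanical shock, was at 13.2 ± 10.7 CPM in synaptosomes and 70.1 ± 12.7 CPM in input. Of 8 translation factors none was called, with a median of -1.19. Of 15 aminoacyl-tRNA synthetases and amidotransferase subunits none rose and 1 fell, with a median of -0.44. ValRS-m, which charges the valine tRNA, held no synaptosome count and 7.20 ± 1.31 CPM in input, at least 4.97-fold higher than the mean floor of 1.45 CPM (adjusted p = 0.0490). That value lay just under the threshold, and the call was not examined in the other fits. Leaving out any 1 input library left 1 to 7 of all genes called lower, against 337 with all libraries. Of 10 genes of mitochondrial RNA synthesis and turnover none was called, with a median of -0.56.

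The cytosolic ribosome and respiratory complex I gave the nearest families in size. Of 78 cytosolic ribosomal protein genes tested none rose and 22 fell, with a median of -0.71, beside 4.13% of all genes that fell and none of the 69 mitochondrial ones. The median standard error was 0.38 for the cytosolic genes and 0.71 for the mitochondrial ones, and the median input level was 2251 against 51.1 CPM. Of 33 complex I genes 1 rose and 1 fell, with a median of -0.48. The differences between these families were not tested.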

How the data were processed

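The authors sequenced QuantSeq REV 3′ libraries. As their methods and processing notes state, they trimmed reads with fastp, aligned them with STAR 2.6.1b to dm6, masked internal priming and kept clusters near known 3′ ends. The deposited counts are whole, unnormalized reads per gene and per end, without molecular identifiers, so intervals and floors cover counting error only. Ends are numbered without coordinates. The deposited tables of differential expression hold the authors' own comparison and were not used. Symbols and coordinates came from Ensembl release 115 (BDGP6.54, the dm6 assembly), 1-based. Libraries were grouped by title. The columns named old show a group but no replicate number, and no label calls the libraries separate collections. The p-values therefore reflect only how far these samples spread, and that spread may be technical.

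All 8159 genes and 11062 ends that passed filterByExpr were fitted in edgeR 4.0.16 (R 4.3.3, TMM, robust quasi-likelihood, no covariates). End usage was tested with diffSpliceDGE. A call is a Benjamini-Hochberg adjusted p-value under 0.05. All 69 members passed the filter. Standard errors are approximate, the size of the log2 fold change over the root of the F statistic. The log2 levels used for correlations had a prior count of 2, and ratios of members between the old libraries used a smaller one. Scripts were tested on simulated data. The members and lists were chosen with earlier results of these data known. Genes were named if they or an end were called, if the groups did not overlap, if they were among the 5 with the largest or smallest fold change or the highest mean in either group, or had 1 of the 3 smallest usage p-values; all members had a mean count of at least 50. Alternatives were DESeq2 1.42.0, other scalings and filters, thinning, blocks, a batch term and leaving out libraries.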

Additional observations from a re-analysis of the deposited data

Results flagged for a closer look

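In groups of 4 libraries, a library was singled out when its gap to the nearest other exceeded Dixon's critical share of the group's range, which chance gives in about 1 in 20 groups. Of 54 tests over the named members and summed shares, 5 met this. In input old, mRpL28 was at 243 CPM, mRpL34 at 144 CPM and mRpL42 at 252 CPM, each above the other 3 input libraries. mRpL48 was at 21.03 CPM in synaptosome 2 against at most 1.17 CPM in the other synaptosome libraries. mRpS24 was at 232 CPM in synaptosome 1 against at most 74.8 CPM in the others.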

How the results depend on the processing

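mRpL33 stayed called in the 10 alternatives chosen first that did not leave out 1 library in turn, with log2 fold changes from 2.37 to 2.96, and members called higher numbered 0 without the 2 shallowest libraries (chosen after seeing the data), for genes and for ends. Members called lower numbered 2 with DESeq2 for genes and 2 for ends. Ends called lower numbered 2 without both old libraries and 0 with no filter, a mean count of at least 100, thinning, either replicate block or without the 2 shallowest libraries. The median of member ends was -0.47 after thinning and -0.45 where the mean count was 100 or more. Same-numbered libraries deviated together at r = 0.00, 0.04 and -0.02, and 0.25 for the old pair. With synaptosome libraries this variable, such values cannot show whether the numbers pair the samples. With a replicate block on libraries 1 to 3, members higher stayed at 1 and lower at 0, and the median of ends was -1.06 (all ends -1.84). With old as a further block, the medians were -0.93 for genes (all genes -1.08) and -1.14 for ends (all ends -1.58). Leaving out 1 library in turn gave 0 to 1 members higher and 0 to 1 lower, 0 to 1 ends higher and 0 to 3 lower, medians of -0.92 to -0.38 for genes and -1.06 to -0.55 for ends, 0 to 0 usage calls, and log2 ratios of summed shares of -0.30 to -0.04. Among the members named here, directions turned, none of them called, for mRpL28 after thinning (0.12), mRpL42 without old (0.062), mRpL50 with median-of-ratios scaling, DESeq2 and a mean count of at least 100 (0.061 in each) and without old (0.081), mRpL55 with a batch term for old (-0.058) and with old as a block (-0.13), and mRpS6 without the 2 shallowest libraries (0.037). Leaving out 1 library turned the named members mRpL50 (-1.02 to 0.40), mRpL55 (-0.15 to 0.59), mRpS24 (-0.060 to 1.01) and mRpS29 (-0.28 to 0.83). The causes were not tested. Over all 69 members, 22 turned in at least 1 of these 8 fits, 18 of them not named here, and 47 kept their sign, 42 of them negative. Under the other alternatives 29 turned, 24 of them not named here. Of the 69 members, 22 had at least 1 synaptosome library at 0, and the part of depth in this was not tested.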
